A study of Mus musculus with 12 samples.

Results

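The genes described here are Nfat5 and 9 genes that make, break down or import the organic osmolytes of the kidney medulla, namely Akr1b3, Sord, Slc5a3, Impa1, Slc6a6, Slc6a12, Pnpla6, Gdpd5 and Chka. They were chosen by symbol in the deposited expression table, and all 10 were found among its 48034 genes. RNA was sequenced from subclone 53a of IMCD3, a mouse line from the inner medullary collecting duct, as 12 poly(A) libraries. Cells received vehicle or mifepristone, and each was studied without and with 100 mM added NaCl, giving 4 groups of 3 libraries named A, B and C. The subclone carries a gene switch under which mifepristone induces a dominant-negative form of a tubule epithelial transcription factor, as is known of the study. All 4 groups carry that inducible construct in a single subclone, and cells without it were not analysed here, so the action of the mutant and that of mifepristone itself cannot be told apart. The labels give no length of treatment and do not say whether libraries A, B and C of a group are separate cultures.

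NFAT5, also called TonEBP, is a Rel-family transcription factor that acts when the fluid outside a cell becomes hypertonic. Cells of the renal inner medulla, which live in a concentrated interstitium, accumulate sorbitol, myo-inositol, taurine, betaine and glycerophosphocholine, solutes that balance osmotic pressure without disturbing proteins as high salt does. NFAT5 binds a DNA element named TonE (tonicity-responsive enhancer), which holds the core TGGAAA, and is known to activate the genes for aldose reductase and for the inositol, taurine and betaine transporters.

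The betaine transporter gene Slc6a12 and the phospholipase gene Pnpla6 were the members whose RefSeq promoter windows (the 250 bases before a transcript start, GRCm38.p6) held a match to the TonE consensus on either strand. Windows existed for 6 members (Nfat5, Sord, Slc5a3, Slc6a12, Pnpla6 and Chka), 12 windows in all, of which 3 windows of 2 genes held the letters TGGAAA on either strand and 2 held the consensus, which contains that core. Over all 32851 windows of the same length, 18.6% held the core and 4.31% the consensus. Most of the 12 windows belonged to Slc6a12 and Pnpla6, which had several each, some overlapping, while Nfat5, Sord, Slc5a3 and Chka had a single window each. The shares are per window and not per gene, so Slc6a12 and Pnpla6 had more places for a match. The 2 consensus matches are shown with their flanks, 5′ to 3′ on the strand that reads TGGAAA, with the core in capitals.
Slc6a12 site: ggtacttggTGGAAAactccagtctgtgat
Pnpla6 site: ctcggtcgaTGGAAActcgtaccattcagg
The Slc6a12 match lay at chr6:121342499-121342509 on the gene's own strand, at position -75 from a RefSeq start and outside the genes annotated in GENCODE M21. The Pnpla6 match lay at chr8:3515468-3515478 on the strand opposite to the gene, at position -168 from a RefSeq start and in an exon annotated as untranslated. The whole window of the Slc6a12 match is shown because this gene had the lowest level of the 10 without NaCl and rose by the largest ratio of reads when NaCl was added.
Slc6a12 window, chr6:121342324-121342573, plus strand: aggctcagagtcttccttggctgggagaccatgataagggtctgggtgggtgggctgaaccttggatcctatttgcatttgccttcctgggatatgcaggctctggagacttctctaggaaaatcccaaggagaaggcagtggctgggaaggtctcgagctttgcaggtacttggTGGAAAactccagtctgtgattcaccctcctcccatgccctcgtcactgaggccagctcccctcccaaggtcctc
A match is a description of letters, and binding of NFAT5 was not measured in these data.

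Reads recovered from the deposited values summed to between 41940955 and 49270776 per library. All 7 epithelial markers were at an FPKM of at least 1 in every library, and their summed FPKM ran from 609.3 to 1107. The 10 markers of collecting duct principal cells summed to only 1.38 to 12.4 FPKM, and Aqp2, the vasopressin-regulated water channel, reached at most 0.101 FPKM in any library. Mifepristone C and vehicle A deviated from their group means along transcript length, with a Spearman rho across genes between deviation and exon length of -0.51 and -0.44, against 0.47 in mifepristone A and 0.42 in mifepristone B. Levels are given in FPKM, fragments per kilobase of exon scaled for library depth, as deposited. Differences are given as log2 fold changes of FPKM + 0.5 with limma, which adjusted p over the 14044 genes that reached 1 FPKM in 3 or more of the 12 libraries, and a gene was called at an adjusted p under 0.05. In RNA from whole cultures, a change in the share of cells that make an RNA and a change in RNA per cell cannot be told apart.

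Added NaCl changed all 10 genes in vehicle cells, with 8 higher and 2 lower, where 56.7% of all genes tested were called (25.2% higher and 31.5% lower). The median over the 10 genes was 0.99 (log2), against -0.02 over all genes tested. In mifepristone cells 7 genes rose with NaCl and 1 fell, with a median of 0.83 against -0.06 over all genes, where 58.7% were called (24.5% higher and 34.2% lower). All 10 genes passed the filter on low values, Slc6a12 only through its libraries with NaCl, so its rise was bound to the filter, and the counts in either background include it. The largest rises belonged to aldose reductase, the betaine transporter and the inositol transporter in vehicle cells, and Sord and Gdpd5, which encode enzymes that consume an osmolyte, fell there.

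**Figure D1:**
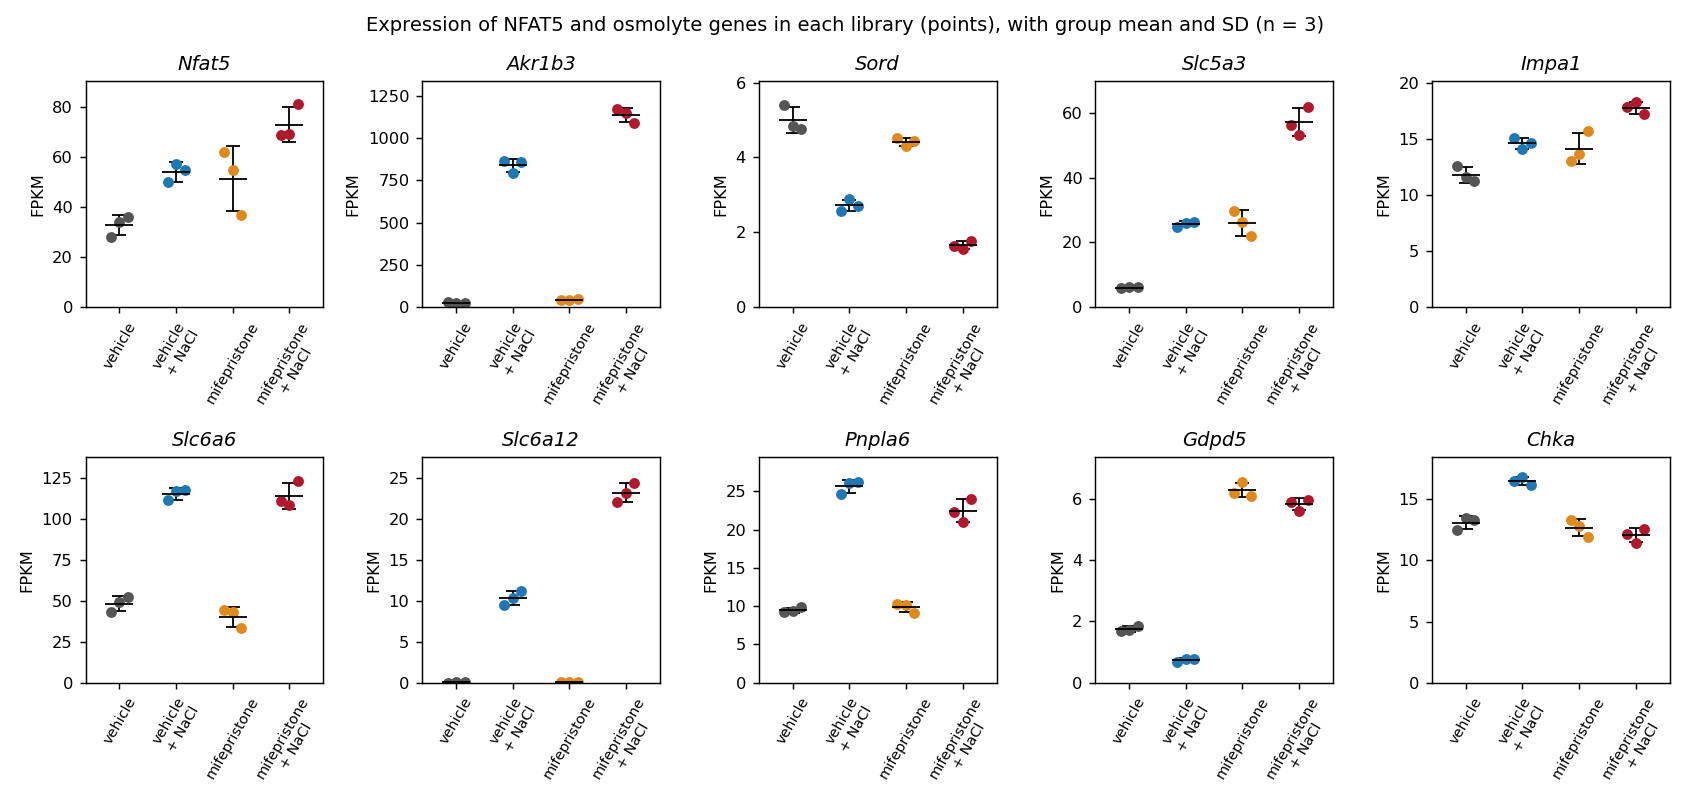
FPKM (y axis, linear and starting at 0, with a scale for each gene) of the 10 genes in each library, by group (x axis). Points are libraries A, B and C from left to right, and bars are the mean and SD. Akr1b3 lay between 24.2 and 46.7 in the 6 libraries without NaCl and between 794.9 and 1175 in the 6 with NaCl.

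Nfat5, at chr8:107293470-107379517 on the plus strand (ENSMUSG00000003847), encodes the transcription factor itself. Its level in vehicle libraries A, B and C was 28.1, 33.9 and 35.8 FPKM, and with NaCl 49.8, 57.4 and 54.9. In mifepristone libraries it was 62.2, 54.9 and 36.9 FPKM, and with NaCl 68.7, 69.2 and 81.1. The NaCl groups lay above their controls without overlap in both backgrounds, and mifepristone C stood well below its 2 partners. NaCl raised Nfat5 by 0.72 (SE 0.165, limma adjusted p = 0.0032) in vehicle cells and by 0.53 (SE 0.165, limma adjusted p = 0.0169) in mifepristone cells. Mifepristone raised it by 0.62 without NaCl (limma adjusted p = 0.0073) and by 0.43 with NaCl (limma adjusted p = 0.0439), and the second call was lost under 12 of the alternatives (adjusted p = 0.0502 to 0.136), among them leaving out vehicle B or C, mifepristone B, or any 1 library with NaCl. The transcript is the longest of the 10, with 18378 exon bases, and mifepristone C is the library with the strongest length trend. Without mifepristone C the mifepristone effect without NaCl was 0.84 and the NaCl effect in mifepristone cells was 0.31, and without mifepristone with NaCl C that NaCl effect was 0.46 (limma adjusted p = 0.0628).

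Sorbitol is made from glucose by aldose reductase, the product of Akr1b3 at chr6:34302434-34317478 on the minus strand, and is oxidised to fructose by sorbitol dehydrogenase, the product of Sord at chr2:122234749-122265340 on the plus strand. Akr1b3 was at 28.0, 24.2 and 24.5 FPKM in vehicle libraries and at 864.7, 794.9 and 860.2 with NaCl. In mifepristone libraries it was at 39.7, 37.7 and 46.7 FPKM, and at 1175, 1152 and 1091 with NaCl. Every group was separate from the others, and the level with NaCl was the highest of the 10 genes in both backgrounds. The rise with NaCl was 32.3-fold in vehicle cells (log2 5.01, SE 0.083, limma adjusted p = 6.54e-12) and 27.3-fold in mifepristone cells (log2 4.77, limma adjusted p = 7.19e-12). The difference between these rises was -0.24 (95% interval -0.50 to 0.02, limma adjusted p = 0.145) and was not called. Mifepristone raised Akr1b3 by 0.68 without NaCl and by 0.44 with it (limma adjusted p = 3.14e-05 and 0.000817). An antisense gene, Gm14546, overlaps Akr1b3, and whether the counting used strand is not given in the sources used here.

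Sord moved the other way. It was at 5.41, 4.84 and 4.76 FPKM in vehicle libraries and at 2.58, 2.88 and 2.69 with NaCl. In mifepristone libraries it was at 4.52, 4.31 and 4.44 FPKM, and at 1.64, 1.56 and 1.76 with NaCl. All 6 libraries with NaCl were below all 6 without, and the lowest 3 were those with both agents. NaCl lowered Sord by 1.71-fold in vehicle cells (log2 -0.77, limma adjusted p = 8.04e-07) and by 2.29-fold in mifepristone cells (log2 -1.19, limma adjusted p = 1.75e-08), and the difference of -0.42 was called (SE 0.082, limma adjusted p = 0.00277). Mifepristone alone lowered it by 1.116-fold (log2 -0.16, limma adjusted p = 0.0337), and with NaCl by 1.495-fold (log2 -0.58, limma adjusted p = 5.6e-06). The first of these calls was lost under 8 alternatives, among them leaving out vehicle A (-0.11, limma adjusted p = 0.137) or mifepristone B (-0.14, limma adjusted p = 0.0991).

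Within each library the FPKM of Akr1b3 divided by that of Sord sets the enzyme that forms sorbitol beside the one that uses it. This ratio was 5.11 ± 0.101 (SD, n = 3) in vehicle cells and 310.1 ± 30.9 with NaCl. In mifepristone cells it was 9.35 ± 1.01 and, with NaCl, 692.0 ± 62.8. The 4 groups did not overlap, and the libraries with both agents were highest.

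**Figure D2:**
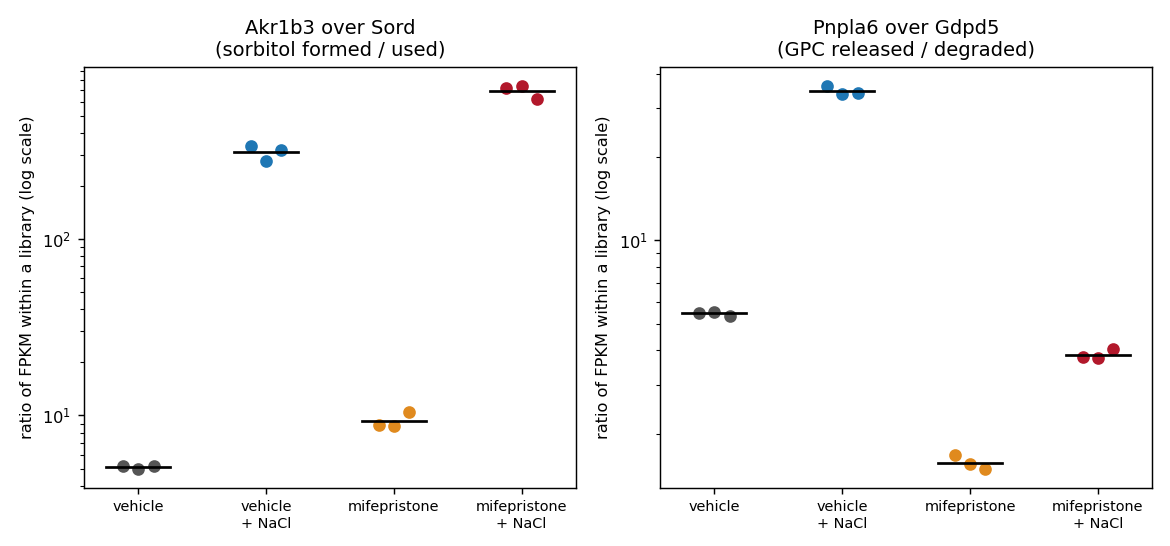
Ratio of FPKM within each library (y axis, log scale) for Akr1b3 over Sord and for Pnpla6 over Gdpd5 (GPC, glycerophosphocholine), by group (x axis). Points are libraries and lines are group means, and the Pnpla6 to Gdpd5 ratio was lowest in mifepristone cells (1.57) and highest in vehicle cells with NaCl (34.6).

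Myo-inositol enters the cell through SMIT1, the sodium-coupled transporter encoded by Slc5a3 at chr16:92058322-92087473 on the plus strand. Slc5a3 was at 5.87, 6.06 and 6.02 FPKM in vehicle libraries and at 24.8, 26.1 and 26.3 with NaCl. In mifepristone libraries without NaCl it was at 29.8, 26.4 and 21.8 FPKM, a range that contains the vehicle libraries with NaCl, and with both agents at 56.3, 53.4 and 62.1. NaCl alone raised Slc5a3 by 2.02 (SE 0.092, limma adjusted p = 1.59e-08) and mifepristone alone by 2.02 (SE 0.092, limma adjusted p = 9.82e-09), the same vehicle libraries being the controls of both. On top of mifepristone, NaCl raised it by 1.13 (limma adjusted p = 1.27e-06), and the difference of -0.88 between the NaCl effects was called (SE 0.130, limma adjusted p = 0.000531). In FPKM, the group means rose by 19.7 with NaCl in vehicle cells and by 31.3 in mifepristone cells, so the smaller fold in mifepristone cells stood beside a larger step in level.

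Slc5a3 lies within the span of Mrps6, a gene for a mitochondrial ribosomal protein on the same strand (chr16:92058270-92112227), and 159 of its 10913 exon bases are also exon of Mrps6. Gm49711, annotated as protein-coding on the same strand, also overlaps Slc5a3. Mrps6 was at 46.3, 42.5 and 39.8 FPKM in vehicle libraries, at 133.6, 115.5 and 121.2 with NaCl, at 109.2, 105.4 and 129.7 with mifepristone and at 307.2, 295.3 and 281.4 with both. It thus rose in the same 4 comparisons (1.25 to 1.51 log2, limma adjusted p from 9.66e-08 to 2.79e-07), and reads may be shared between these genes. The Mrps6 rises with NaCl were 1.51 in vehicle and 1.36 in mifepristone cells, a difference of -0.15 (95% interval -0.42 to 0.12) that was not called. The ratio of Slc5a3 to Mrps6 FPKM was 0.140 ± 0.0125 (SD, n = 3) in vehicle cells, 0.209 ± 0.0208 with NaCl, 0.231 ± 0.0550 with mifepristone and 0.195 ± 0.0222 with both, so it was lowest in vehicle cells.

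Impa1, at chr3:10311956-10331439 on the minus strand, encodes the inositol monophosphatase that frees inositol in its synthesis and recycling. It was at 12.6, 11.6 and 11.2 FPKM in vehicle libraries and at 15.1, 14.1 and 14.6 with NaCl, and in mifepristone libraries at 13.1, 13.7 and 15.7, and at 17.8, 18.3 and 17.2 with NaCl. Each treated group lay above its own control. NaCl raised Impa1 by 0.30 in vehicle and 0.32 in mifepristone cells (limma adjusted p = 0.0022 and 0.00122), and mifepristone raised it by 0.25 without and 0.28 with NaCl (limma adjusted p = 0.00573 and 0.00329). The NaCl effects differed by 0.02 (95% interval -0.17 to 0.22), which was not called. The ratio of Slc5a3 to Impa1 FPKM, uptake beside synthesis, went from 0.509 ± 0.0369 (SD, n = 3) in vehicle cells to 3.23 ± 0.346 with both agents. Gm38303, annotated as protein-coding on the same strand, overlaps Impa1, and reads may be shared between these genes.

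Slc6a6, at chr6:91684053-91759066 on the plus strand, encodes TauT, the transporter that brings in taurine. It was the member with the highest level in vehicle cells, at 43.1, 49.3 and 52.1 FPKM, and was at 111.1, 116.8 and 117.6 with NaCl. In mifepristone libraries it was at 44.2, 43.0 and 33.3 FPKM, and at 110.7, 108.4 and 123.1 with NaCl. The 6 libraries with NaCl were all above the 6 without, and within each NaCl state the vehicle and mifepristone libraries overlapped. NaCl raised Slc6a6 by 2.38-fold in vehicle cells (log2 1.25, limma adjusted p = 1.92e-06) and by 2.84-fold in mifepristone cells (log2 1.504, limma adjusted p = 3.34e-07). With NaCl the mifepristone effect was -0.02 (95% interval -0.24 to 0.21), which was not called. Without NaCl it was called at -0.27 (limma adjusted p = 0.0452) and lost under 12 alternatives, among them leaving out vehicle B or C, mifepristone C, mifepristone with NaCl A or B, or any vehicle library with NaCl. Without mifepristone C it was -0.14 (limma adjusted p = 0.135). Gm45828 on the same strand, and 4930517G19Rik and Gm44981 on the opposite strand, overlap Slc6a6.

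Slc6a12, at chr6:121343076-121365775 on the plus strand, encodes BGT1, the betaine and GABA transporter. In vehicle libraries it was at 0, 0.0293 and 0.0135 FPKM, which came from 6 reads in all 3 libraries, and in mifepristone libraries at 0.0360, 0.0277 and 0.0264 FPKM, from 13 reads. With NaCl it was at 9.54, 10.3 and 11.2 FPKM in vehicle libraries (4333 reads) and at 22.1, 23.2 and 24.4 with mifepristone as well (9794 reads). The gene thus went from a few reads without NaCl to a well covered level in every library with NaCl. The ratio of reads after scaling for depth was 721.4 in vehicle cells (95% exact interval 331.2 to 1967, counting error only) and 777.3 in mifepristone cells (454.3 to 1460), and these intervals overlap widely. With NaCl, mifepristone libraries held 2.24 times the reads of vehicle libraries (2.16 to 2.32), and limma gave 1.13 on the log2 scale (SE 0.060, limma adjusted p = 2.85e-08). Without NaCl the mifepristone effect was 0.04 (95% interval -0.09 to 0.18), not detectable at 6 and 13 reads.

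On the log2(FPKM + 0.5) scale the NaCl effects on Slc6a12 were 4.40 in vehicle and 5.48 in mifepristone cells, and their difference of 1.09 was called (limma adjusted p = 5.62e-06). When voom took the recovered reads, with its own small offset in reads, the same difference was -0.19 (limma adjusted p = 0.857). The difference between the backgrounds that did not depend on the near-zero baseline was the higher level with both agents.

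Glycerophosphocholine is released from phosphatidylcholine by the phospholipase that Pnpla6 (neuropathy target esterase) encodes, at chr8:3515384-3544267 on the plus strand. It is degraded by the phosphodiesterase that Gdpd5 encodes, at chr7:99381414-99461877 on the plus strand. Pnpla6 was at 9.17, 9.38 and 9.83 FPKM in vehicle libraries and at 24.7, 26.1 and 26.2 with NaCl, and in mifepristone libraries at 10.3, 10.1 and 9.13, and at 22.3, 21.01 and 24.0 with NaCl. The libraries with NaCl were all above those without, and without NaCl vehicle and mifepristone libraries overlapped. NaCl raised Pnpla6 by 1.39 in vehicle (SE 0.058, limma adjusted p = 7.39e-09) and by 1.15 in mifepristone cells (limma adjusted p = 2.64e-08). The mifepristone effect was 0.06 without NaCl (95% interval -0.07 to 0.18, not called) and -0.19 with it (limma adjusted p = 0.0159), and the difference of the NaCl effects was -0.24 (limma adjusted p = 0.0423). The call of -0.19 was lost under 5 alternatives, among them leaving out vehicle with NaCl B or C or mifepristone with NaCl B, and that of -0.24 under 13, among them leaving out A or B of any group but vehicle with NaCl, where B or C ended it. Correcting for the length trends gave -0.07 and -0.08, neither of them called.

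Mifepristone changed Gdpd5 by the largest fold of the 10 genes with NaCl, and by the next largest after Slc5a3 without it. Gdpd5 was at 1.68, 1.70 and 1.84 FPKM in vehicle libraries and at 0.683, 0.771 and 0.771 with NaCl. In mifepristone libraries it was at 6.17, 6.53 and 6.10 FPKM, and at 5.88, 5.59 and 5.95 with NaCl. The 6 mifepristone libraries were all above the 6 vehicle libraries, and in each background the libraries with NaCl lay below those without, by a narrow margin in mifepristone cells. NaCl lowered Gdpd5 by 0.85 on the log2 scale in vehicle cells (log2 -0.85, SE 0.050, limma adjusted p = 1.16e-07). In mifepristone cells the value was -0.10 (95% interval -0.21 to 0.01, limma adjusted p = 0.108), and the difference of 0.75 was called (SE 0.071, limma adjusted p = 2.2e-05). Mifepristone raised Gdpd5 by 3.02-fold without NaCl (log2 1.596, limma adjusted p = 4.54e-10) and by 5.08-fold with it (log2 2.35, limma adjusted p = 2.55e-11). The offset of 0.5 lowers these folds for a gene this low, and the ratios of mean FPKM were 3.603 and 7.84. It also lowers the fall with NaCl in vehicle cells and so the difference of 0.75. The ratio of mean FPKM with NaCl to that without was 0.426 in vehicle and 0.927 in mifepristone cells.

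The ratio of Pnpla6 to Gdpd5 FPKM, an enzyme that releases glycerophosphocholine beside one that degrades it, was 5.44 ± 0.0944 (SD, n = 3) in vehicle cells and 34.6 ± 1.31 with NaCl. It leaves out other genes of choline and glycerophosphocholine handling. Among these, with NaCl in vehicle cells, Gpcpd1 rose by 0.16 (limma adjusted p = 0.0264) and Gdpd1 fell by 1.02. With mifepristone the Pnpla6 to Gdpd5 ratio was 1.57 ± 0.0889, and with both agents 3.86 ± 0.153. All 3 libraries with both agents were thus below the vehicle libraries without NaCl, while the Akr1b3 to Sord ratio was highest in those same libraries.

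Chka, at chr19:3851773-3894369 on the plus strand, encodes choline kinase alpha, which commits choline to phosphatidylcholine synthesis. It was at 12.5, 13.5 and 13.3 FPKM in vehicle libraries and at 16.5, 16.8 and 16.1 with NaCl, and in mifepristone libraries at 13.3, 12.8 and 11.9, and at 12.2, 11.5 and 12.6 with NaCl. The vehicle libraries with NaCl stood above the other 9, which overlapped. NaCl raised Chka by 0.32 in vehicle cells (limma adjusted p = 0.000223), and in mifepristone cells the value was -0.07 (95% interval -0.18 to 0.04, not called). The difference of -0.39 was called (SE 0.070, limma adjusted p = 0.00176) and was -0.18 when values were corrected for the length trends (limma adjusted p = 0.0329). With NaCl, mifepristone libraries were lower by 1.35-fold (log2 -0.44, limma adjusted p = 1.65e-05), or -0.28 on the log2 scale with that correction. Antisense genes, Gm16066 and AC133523.2, overlap Chka.

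**Figure D3:**
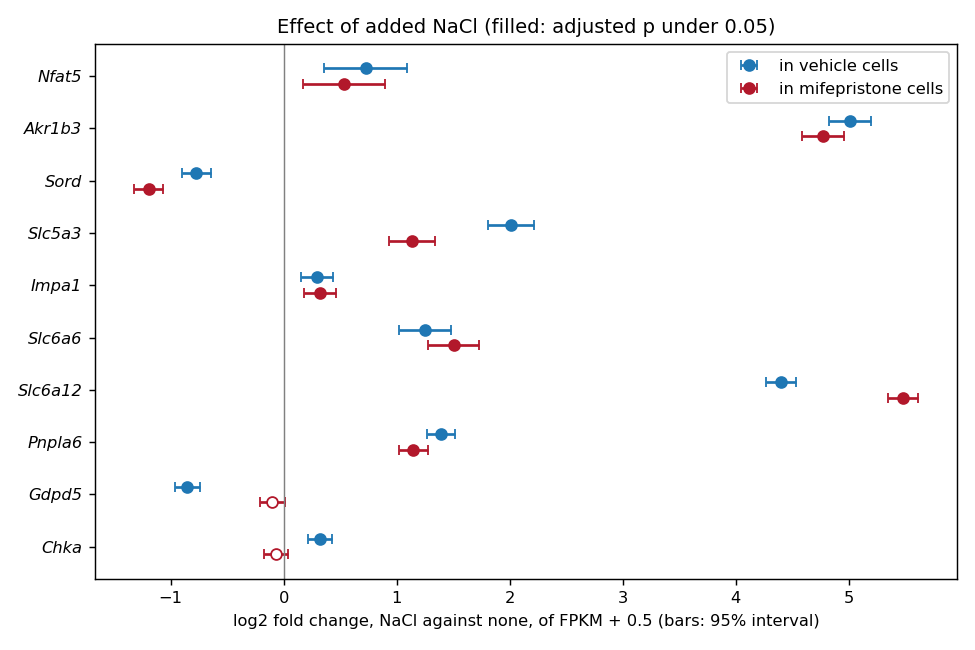
NaCl effect on each gene (x axis, log2 fold change of FPKM + 0.5; points with 95% intervals from limma) in vehicle cells (blue) and mifepristone cells (red). Filled points were called at an adjusted p under 0.05. Gdpd5 (-0.85 against -0.10) and Chka (0.32 against -0.07) were called in vehicle cells and not in mifepristone cells, and Akr1b3 and Slc6a12 stand far to the right in both.

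Across the comparison of NaCl effects, 6 of the 10 genes had a called difference between backgrounds, 2 with a higher value in mifepristone cells (Slc6a12 and Gdpd5) and 4 with a lower one (Sord, Slc5a3, Pnpla6 and Chka), where 31.1% of all genes were called (13.6% higher and 17.5% lower). For Sord the lower value was a deeper fall. For Slc6a12 the call depended on the scale, and for Pnpla6 it was lost under 13 alternatives, most of those run. Without mifepristone C, the difference for Nfat5 was -0.41 and was called (limma adjusted p = 0.0411), against -0.19 with all 12 libraries (95% interval -0.71 to 0.32), while correcting for the length trends turned it to 0.11 (limma adjusted p = 0.464). The NaCl effect on Slc6a6 was not called as different, at 0.25 (95% interval -0.07 to 0.57).

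Mifepristone without NaCl raised 5 of the 10 genes (Nfat5, Akr1b3, Slc5a3, Gdpd5 and Impa1) and lowered 2 (Sord and Slc6a6), where 59.7% of all genes were called (28.3% higher and 31.5% lower). The calls of Sord and Slc6a6 were lost under 8 and 12 alternatives. The median over the 10 genes was 0.15, against -0.01 over all genes tested. With NaCl, 6 were higher (those 5 and Slc6a12) and 3 lower (Sord, Pnpla6 and Chka), where 58.7% of all genes were called (26.8% higher and 31.9% lower), with a median of 0.35 against -0.03. Among these, the calls of Nfat5 and Pnpla6 were lost under 12 and 5 alternatives. Slc5a3 and Gdpd5 were the members beyond 2-fold without NaCl, and Slc6a12 joined them with NaCl. Markers of several cell types also differed between vehicle and mifepristone libraries. Without NaCl, the 10 principal cell markers summed to 2.47 to 2.66 FPKM in vehicle and 10.4 to 11.4 in mifepristone libraries, mostly from Hsd11b2, with Aqp2 at 0 in both groups. The 5 intercalated cell markers summed to 0.315 to 0.326 and 1.46 to 1.49, with Foxi1 at 0 in both, and the 5 markers of thick ascending limb and distal tubule to 3.69 to 4.15 and 0.167 to 0.259, mostly from Umod, with Kcnj1 and Pvalb at 0 in both. The proximal tubule sum, mostly Aqp1, was 39.1 to 41.9 and 5.96 to 6.30. The summed FPKM of 6 fibroblast markers ran from 0.240 to 0.354 in vehicle groups and from 3.01 to 6.33 in mifepristone groups, mostly from Dcn, the 1 marker at 1 FPKM or more, while Col1a2, Pdgfra, Pdgfrb and Lum stayed below 0.05 FPKM in every library. The part of these markers in the results was not tested.

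**Figure D4:**
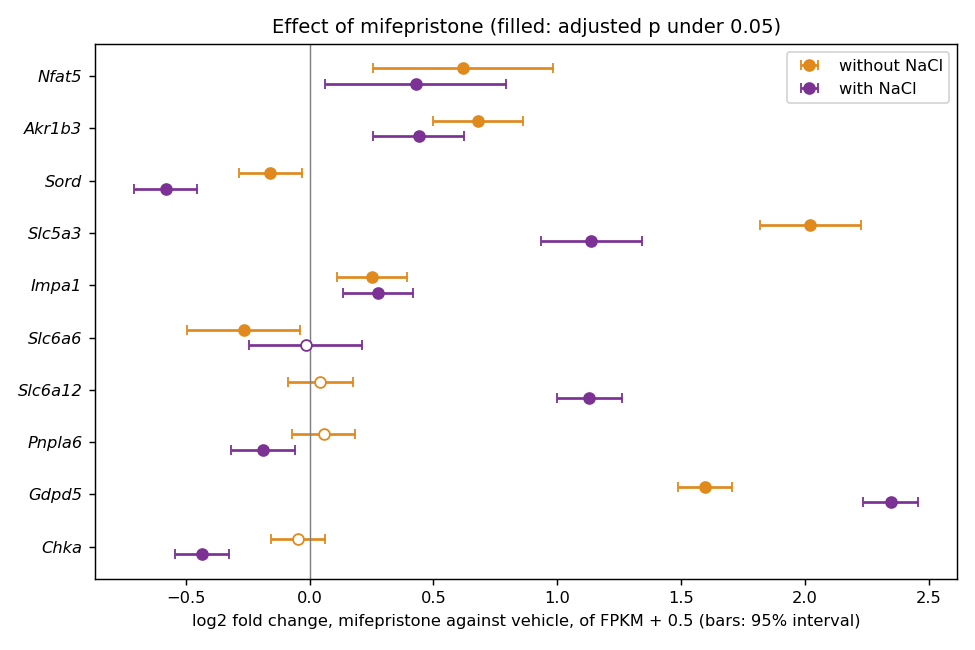
Mifepristone effect on each gene (x axis, log2 fold change of FPKM + 0.5; points with 95% intervals from limma) without NaCl (orange) and with NaCl (purple). Filled points were called at an adjusted p under 0.05. Gdpd5 (1.596 and 2.35) and Slc5a3 (2.02 and 1.14) lie farthest right in both, and Slc6a12 lies near 0 without NaCl and at 1.13 with it.

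The order of levels within a group changed with treatment. In vehicle cells it ran from Slc6a6 through Nfat5, Akr1b3, Chka, Impa1, Pnpla6, Slc5a3, Sord and Gdpd5 to Slc6a12, and among neighbours only Chka and Impa1 overlapped between libraries. With NaCl, Akr1b3 led, followed by Slc6a6, Nfat5, Slc5a3 and Pnpla6, the last pair overlapping, and Sord and Gdpd5 were the lowest. With mifepristone alone, Nfat5, Akr1b3 and Slc6a6 overlapped at the top. With both agents Akr1b3, Slc6a6, Nfat5 and Slc5a3 led, Slc6a12 and Pnpla6 overlapped in the middle, and Sord was lowest.

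**Figure D5:**
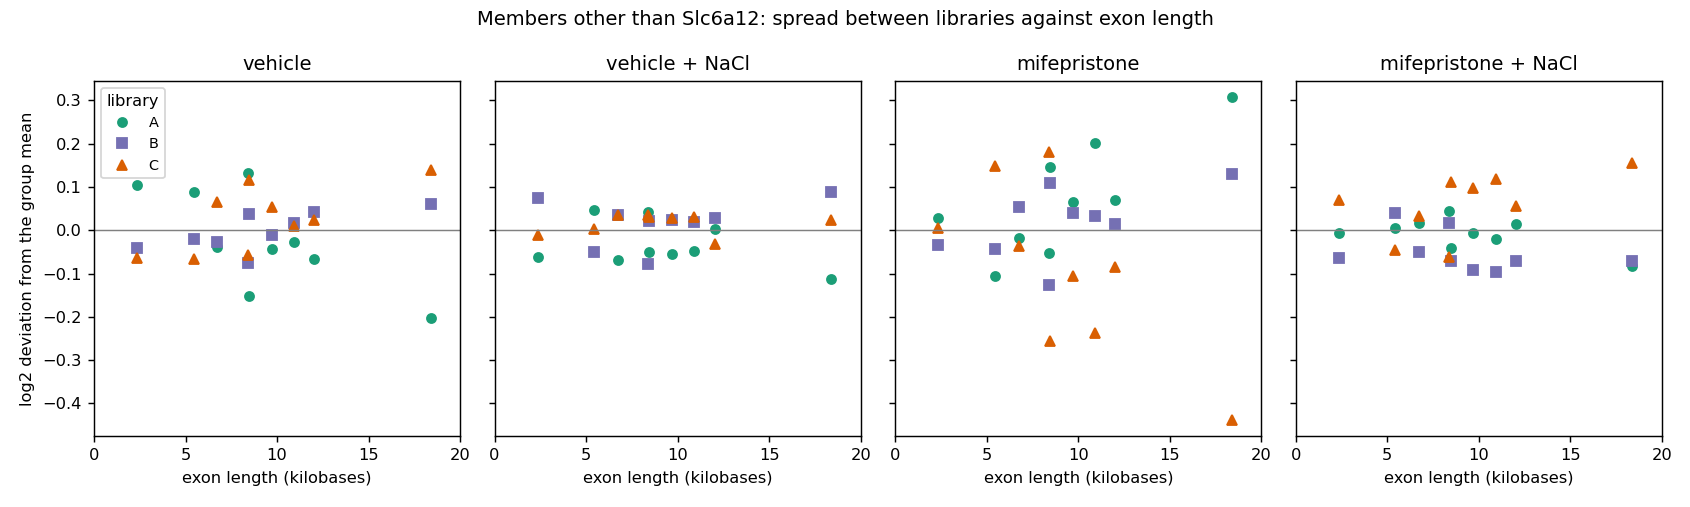
Deviation of each library from its group mean (y axis, log2 of FPKM + 0.5) against exon length (x axis, kilobases) for the 9 genes other than Slc6a12, by group. Colours and shapes are libraries A, B and C. Mifepristone C lies lowest for the longest transcript, Nfat5 (-0.44), where vehicle A lies at -0.20.

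In the authors' deposited table for the mutant, the adjusted p was below 1 for Slc5a3 (log2 2.10, adjusted p = 1.36e-28) and Gdpd5 (log2 1.84, adjusted p = 5.73e-35) among the 10 genes. In the authors' deposited interaction table it was 1 for all 10. The smallest absolute log2 value with an adjusted p below 1 was 1.07 in the first of the authors' deposited tables and 1.21 in the second, so their p may refer to a minimum fold. The authors' deposited tables also mark genes with a nearby ChIP peak, and 5 of the 10 carried the mark (Nfat5, Slc6a6, Gdpd5, Chka and Impa1), against 28.4% of the 14044 genes tested. Of the marked genes, Gdpd5 was the one with a mifepristone effect over 2-fold, and Slc5a3 and Slc6a12 were unmarked.

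For the counts of NaCl effects in related genes that follow, the background over all genes was 25.2% higher and 31.5% lower in vehicle cells (56.7% called) and 24.5% higher and 34.2% lower in mifepristone cells (58.7% called). Of the genes around sorbitol, 3 of 5 rose with NaCl and 1 fell in vehicle cells, and 4 rose in mifepristone cells. Akr1b8 and Akr1b10, aldo-keto reductases related to aldose reductase, rose by 0.95 and 0.70 in vehicle cells and by 1.58 and 0.66 in mifepristone cells. Akr1b7 is among the 3 and the 4 that rose. It passed the filter only through its libraries with both agents, so its rise in mifepristone cells was bound to the filter. Its mean was 1.14 FPKM with both agents against 0.258 with mifepristone alone, and its values of 0.35 and 1.11 are given as a description. Khk, which phosphorylates the fructose that sorbitol dehydrogenase forms, fell by 0.29 in vehicle cells and rose by 0.31 in mifepristone cells.

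Of the other inositol genes, 4 of 7 were tested, and Miox, Slc5a11 and Slc2a13 stayed below the level tested. Isyna1, which makes inositol phosphate from glucose phosphate, rose by 0.89 and 0.92 in vehicle and mifepristone cells, from 52.3 ± 2.003 to 97.5 ± 0.423 FPKM (SD, n = 3) and from 117.3 ± 7.59 to 222.4 ± 11.8. Impa2, a second inositol monophosphatase, fell by 0.71 and 1.14 while Impa1 rose. Inpp1, an inositol polyphosphate phosphatase, rose by 0.47 in vehicle cells and fell by 0.36 in mifepristone cells, and Cdipt, which uses inositol for phosphatidylinositol, was at 0.08 and 0.04, not called. In all, 2 rose and 1 fell in vehicle cells, and 1 rose and 2 fell in mifepristone cells, beside 56.7% and 58.7% of all genes called.

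Among 11 genes of taurine and betaine metabolism, 5 were tested, of which 2 rose and 1 fell in vehicle cells and 4 rose and 1 fell in mifepristone cells. The share called in vehicle cells is near the 56.7% over all genes, and that in mifepristone cells stands beside 58.7%. Chdh, the choline dehydrogenase that begins betaine synthesis, rose by 2.12 and 1.36. Csad, which makes the taurine precursor, rose by 1.27 in vehicle cells, from 11.9 ± 0.321 to 29.4 ± 0.904 FPKM (SD, n = 3), and by 0.10 in mifepristone cells, from 20.5 ± 0.573 to 22.0 ± 0.519. Aldh7a1, which can oxidise betaine aldehyde, fell by 0.12 and rose by 0.25. Slc6a13, the transporter gene GAT2, is among the 4 and passed the filter only through its libraries with both agents. As a description, it was at 0.247 ± 0.0107 FPKM with mifepristone and at 1.42 ± 0.0343 with both.

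Among 16 further genes of choline and glycerophosphocholine handling, 14 were tested, with 5 higher and 4 lower in vehicle cells and 5 higher and 5 lower in mifepristone cells, beside 56.7% and 58.7% of all genes called. Chpt1, a cholinephosphotransferase, rose by 1.43 and 1.23, while Gdpd1, of the same phosphodiesterase family as Gdpd5, fell by 1.02 and 1.49. The choline transporter-like gene Slc44a3 fell by 1.005 and 1.02, and Gdpd3, also of the Gdpd5 family, rose by 0.43 and 0.44. The LRRC8 genes encode the volume-regulated anion channel, which releases osmolytes from swollen cells. Of these 5, 4 fell in vehicle cells and 3 in mifepristone cells, and none was called higher, beside 31.5% and 34.2% of all genes lower. The falls were 0.79 and 0.81 for Lrrc8b, 0.69 and 1.01 for Lrrc8c and 0.21 and 0.33 for Lrrc8d, while Lrrc8e fell by 0.26 in vehicle cells and was at -0.05, not called, in mifepristone cells. Lrrc8a was at -0.01 in vehicle and -0.06 in mifepristone cells, neither called.

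Other genes known to respond to tonicity rose in 8 of 9 cases in vehicle cells, with 1 lower, and in 8 of 9 in mifepristone cells, with none lower, beside 25.2% and 24.5% of all genes higher. S100a4 is among the 8 and passed the filter only through its libraries with NaCl, and Aqp2 was too low to test. Hspa1a and Hspa1b are both among the 8, and as near-identical copies they may carry a shared signal into the count. Aqp1, a water channel, rose by 3.46 and 4.52, and the kinase gene Sgk1 by 3.53 and 4.09. The heat shock genes Hspa1a, whose near-identical copy Hspa1b makes its value uncertain, and Hsph1 rose by 2.61 and 2.01 in vehicle cells and by 2.402 and 2.89 in mifepristone cells. Aqp1 started lower with mifepristone, at 5.70 ± 0.230 FPKM against 39.1 ± 1.38 (SD, n = 3), and Sgk1 started higher, at 4.37 ± 0.162 against 2.28 ± 0.132. Of the kinases and partners of NFAT5, 5 of 10 were higher and 2 lower in vehicle cells and 5 were lower in mifepristone cells, beside 56.7% and 58.7% of all genes called. Among them the kinase gene Fyn fell by 0.72 in both backgrounds and the small GTPase gene Rac1 by 0.27 and 0.31. Spag9, a kinase scaffold, and Ptpn11, the phosphatase SHP2, rose by 0.46 and 0.29 in vehicle cells, with 0.02 and -0.02, neither called, in mifepristone cells. Of the 4 calcineurin-dependent NFAT genes, 1 rose and 1 fell in vehicle cells and 1 fell in mifepristone cells, beside 56.7% and 58.7% of all genes called. Nfatc4 fell by 0.43 and 0.74, and Nfatc3 rose by 0.26 in vehicle cells and was at -0.11, not called, in mifepristone cells. Nfatc1 (-0.09 and -0.14) and Nfatc2 (0.19 and -0.10) were not called in either background.

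Mifepristone without NaCl raised 3 of 4 tested inositol genes and lowered none, and it lowered 3 of 5 sorbitol-related genes and raised none. It raised 5 and lowered 7 of 14 choline and glycerophosphocholine genes, and raised 3 and lowered 1 of 5 LRRC8 genes. Of 9 other tonicity-responsive genes it raised 4 and lowered 3. Slc14a2 is among these 3 and passed the filter only through its vehicle libraries without and with NaCl, so its fall was bound to the filter. Of 5 taurine and betaine genes mifepristone raised 2 and lowered 1. Slc6a13 is among those raised and passed the filter only through its libraries with both agents. Of 10 kinases and partners of NFAT5 mifepristone raised 2 and lowered 2, and of 4 calcineurin-dependent NFAT genes it raised 1 and lowered 2. The counts of these lists stand beside 59.7% of all genes called (28.3% higher and 31.5% lower).

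Genes whose profile over the 12 libraries was most like that of a member were found by the smallest root mean square difference of mean-centred log2(FPKM + 0.5) values. Nfat5, whose own profile had an SD of 0.453, was nearest to Rbpsuh-rs3 (0.103), Tulp4 (0.121) and Sptan1 (0.131). Slc6a6 was nearest to B4galnt3 (0.0978), Fgd3 (0.105) and Dusp8 (0.130). Slc5a3 was nearest to Timp3 (0.149), a secreted metalloproteinase inhibitor that went from 3.08 FPKM in vehicle cells to 14.5 with NaCl, 18.3 with mifepristone and 35.1 with both, followed by Bcl6 (0.226) and Afap1l2 (0.247). Akr1b3 and Slc6a12 were both nearest to Me1, the cytosolic malic enzyme (0.383 and 0.331), which went from 13.01 to 225.3 FPKM with NaCl in vehicle cells and from 11.6 to 341.8 in mifepristone cells, and next to Ranbp3l (0.518 and 0.622). Slco4a1 was the third gene for Akr1b3 (0.538) and Sgk1 for Slc6a12 (0.635). Slc6a12 had 6 and 13 reads without NaCl in vehicle and mifepristone cells, so the offset of 0.5 set its values there. Its likenesses depend on that offset, since by reads it rose 721.4-fold with NaCl in vehicle cells. Ranbp3l was also near 0 without NaCl, at 0.131 FPKM in vehicle and 0.119 in mifepristone cells. The libraries share group and length trend, and these likenesses are descriptions.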

How the data were processed

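The 12 poly(A) libraries form 4 groups of 3, and a TruSeq kit was used, per the labels. DESeq2 1.12.3, SAMtools 1.0, STAR 2.4.2a and Trimmomatic 0.32 are listed in the submitters' processing notes, with GRCm38 (mm10) as the build. Counting program, annotation and strand use: not given in the sources used here. The authors deposited FPKM values per library, and tables with a mean signal per gene, log2 fold changes, adjusted p-values and a mark of a nearby peak, per the file headers. Columns named for the mutant were taken as mifepristone samples by their NaCl part, letter and knowledge of the study, and 0 columns lacked a sample.

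Reads recovered from FPKM and the authors' mean signal were whole for 100.0% of values within 0.05, and a count of 0 allows 3 reads, or 0.0609 to 0.0715 CPM. limma 3.58.1 in R 4.3.3 (trended, robust) was run on log2(FPKM + 0.5) with 4 group means, 12 libraries and 8 residual degrees of freedom. It took the 14044 genes at 1 FPKM or more in 3 or more libraries, with Benjamini-Hochberg adjustment over them, and was tested on simulated data. With nothing to say that libraries came from separate cultures, p-values cover only the spread among these libraries, possibly a technical one. A fold on this scale understates changes of genes near 0. Loci and exon lengths came from GENCODE M21, promoters from RefSeq (GRCm38.p6).

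The 10 genes, the 8 lists (68 genes) and the tests were chosen with earlier results of these data known. From each list up to 4 genes with the smallest adjusted p for NaCl in vehicle cells are named. Genes too low to test and genes that limit a count or a ratio are also named, and 3 genes per member for likeness. Alternatives were pseudocounts of 0.1 and 1, no filter or a minimum of 5, median-ratio and quantile scaling, a replicate block, library weights (limma's estimation stopped before convergence), voom on recovered reads, a length correction, and leaving out libraries. Tables and figures used Python 3.11.15, pandas 2.3.3, numpy 2.4.6, scipy 1.17.1 and matplotlib 3.10.9.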

Additional observations from a re-analysis of the deposited data

Results flagged for a closer look

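The NaCl effect in mifepristone cells minus that in vehicle cells (log2, limma) was called for 6 of the 10 genes, at -0.42 for Sord, -0.88 for Slc5a3, 1.09 for Slc6a12, -0.24 for Pnpla6, 0.75 for Gdpd5 and -0.39 for Chka. The limits of the Slc6a12, Pnpla6, Gdpd5 and Chka values are given with each gene above.

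The same difference was also called for some of the named genes of the surrounding pathways. Higher values in mifepristone cells were 0.63 for Akr1b8, 0.76 for Akr1b7, 0.60 for Khk, 0.37 for Aldh7a1, 1.25 for Slc6a13, 1.06 for Aqp1, 0.56 for Sgk1 and 0.88 for Hsph1. Akr1b7 and Slc6a13 passed the filter on low values only through their libraries with both agents, so the direction of their values was bound to it. Lower values were -0.43 for Impa2, -0.83 for Inpp1, -1.17 for Csad, -0.76 for Chdh, -0.20 for Chpt1, -0.47 for Gdpd1 and -0.32 for Lrrc8c. They were also -0.21 for Hspa1a, -0.44 for Spag9, -0.32 for Ptpn11, -0.31 for Nfatc4 and -0.37 for Nfatc3. Over all genes, 31.1% were called in this comparison. The named genes were picked by the smallest adjusted p for NaCl in vehicle cells, an effect that enters this difference. The number of them called can therefore not be compared with that share.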

How the results depend on the processing

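The 5 comparisons of the 10 genes gave values under alternatives that left out no single library, of which 510 kept their direction and call, 21 lost the call, 7 gained it and 7 changed sign. With libraries left out in turn the counts were 563, 31, 1 and 5. For the other named genes they were 923, 18, 12 and 6, and 1024, 35, 4 and 5. Calls in the NaCl comparison of vehicle cells held for all 10 genes with each library left out. Slc6a12 is counted among them, and its rise with NaCl in either background was bound to the filter on low values. The members called with a library left out ranged over 6 to 7 (mifepristone, no NaCl), 7 to 9 (with NaCl), 7 to 8 (NaCl in mifepristone cells) and 5 to 7 (difference of NaCl effects). That difference was called for 4374 genes, for 7156 with library weights and for 3512 to 6784 with a library left out, 6784 being without mifepristone C.

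The sign changed for Slc6a12 with mifepristone and no NaCl (-0.12, quantile), for its difference of NaCl effects (-0.19, voom), for Slc6a6 with mifepristone and NaCl (0.0138 with median-ratio scaling, 0.02 quantile, 0.0868 length correction, -0.0718 to 0.0196 with a library left out), for Chka with NaCl in mifepristone cells (0.0248, length correction), for the Nfat5 difference (0.11, length correction) and for the Impa1 difference (-0.028 to 0.0989 with a library left out). It changed for Slc6a13 with NaCl in vehicle cells (-0.0683, quantile), and with NaCl in mifepristone cells for Spag9 (-0.0844 with weights, -0.0886 without vehicle A and mifepristone C, -0.0886 to 0.0904 with a library left out) and Ptpn11 (0.0248 with median-ratio scaling, 0.0108 quantile, 0.0505 length correction, -0.0764 to 0.0077 with a library left out). Apart from the Slc6a12 difference, these values were not called to begin with, and the cause was not tested.

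Deviations of the 18 same-letter pairs of libraries correlated from -0.50 to 0.29, and 6 pairs were over 0.1. Pairs with different letters correlated from -0.44 to 0.61. Length trends differed between libraries, so these values cannot decide whether the letters mark matched samples. With the letter as a replicate block 7972, 7780, 7479, 7696 and 3724 genes were called in the order mifepristone without and with NaCl, NaCl in vehicle cells, NaCl in mifepristone cells and the difference, and Sord, Slc6a6, Nfat5 and Pnpla6 each lost 1 call. Depth limits Slc6a12 without NaCl, with 6 and 13 reads per group.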
